A study of Canis lupus familiaris and Dasypus novemcinctus and Ornithorhynchus anatinus with 3 samples.

Results

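The genes described here are the translation initiation factors (EIF genes) and elongation factors (EEF genes) read in pregnant endometrium, the lining of the uterus, of dog, armadillo and platypus. Members were all gene symbols beginning with EIF or EEF, except the EIF2AK kinases, that were listed in the tables of at least 2 of the 3 species. This gave 52 members among 12476 symbols shared by at least 2 tables, and 31 of them were listed in all 3. In dog 50 members were listed, in armadillo 40 and in platypus 45. Their levels are given as CPM, the reads of a gene scaled to the summed reads of all genes of that species' table. Below, 3 values in a row stand for dog, armadillo and platypus, in this order.

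Each species was represented by a single mRNA library of total RNA, and the labels state no day of gestation, age, breed or strain, and no number of animals. The 3 groups were the dog (Canis lupus familiaris), the armadillo (Dasypus novemcinctus) and the platypus (Ornithorhynchus anatinus), all sampled in pregnancy, and no treatment is named. Dog and armadillo are placental mammals and the platypus lays eggs. With 1 library per species no test was possible, so every difference below is one between libraries, and the 95% intervals (exact Poisson for levels, exact binomial for shares and for ratios of reads) cover counting error only.

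Protein synthesis starts when EIF1, EIF1A, EIF3 and EIF5 gather on the small ribosomal subunit with EIF2, which brings the initiator tRNA, while the EIF4 proteins load the messenger RNA by its cap. The small subunit then scans to the start codon, EIF5B joins the large subunit, and EEF1A and EEF2 lengthen the chain by delivering tRNAs and moving the ribosome along. Control acts mainly at EIF2, through its exchange factor EIF2B, and at EIF4E, which the EIF4E-binding proteins block until mTOR signalling releases it. In the pregnant uterus, glands and stroma make large amounts of secreted protein.

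The dog table held 13625465 reads, that of armadillo 13218476 and that of platypus 2243556, so the platypus values are the least precise. A count of 0, taken to allow up to 3 reads, left room for 0.220, 0.227 and 1.34 CPM. Marker lists differed between the libraries. Of 6 smooth muscle markers, the 4 listed in dog summed to 45.7 CPM, the 4 in armadillo to 25124 and the 5 in platypus to 16579.9. Of 6 epithelial markers, the 3 listed in dog summed to 2541 CPM, the 5 of armadillo to 837 and the 4 of platypus, with ST14 at 0, to 6.69. For 4 cell cycle genes the sums were 1496 CPM over 3 in dog, 39.9 over 3 in armadillo and 191 over 4 in platypus, where TOP2A and CCNB1 were at 0. Stromal markers summed to 626 CPM over 2 listed in dog, 21749 over 5 in armadillo and 6974 over 5 in platypus. Endothelial markers summed to 41.4 over 2, 2159 over 3 and 22.7 over 4, with VWF and ESAM at 0 in platypus. Leukocyte markers summed to 13.1 over 3, 684 over 4 and, for CD74 alone, 4.90. Plasma cell markers summed to 28.3 over 3, 11.1 over 2 and 2103 over 3, with IGJ at 0 in platypus. These sums rest on different genes, and an unlisted gene does not show that its cells were missing. The part of this cell composition in the results below was not tested, and in bulk tissue fewer cells of a type and less RNA per cell cannot be told apart.

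Most members were present in every library that listed them. A level of 2 CPM or more was reached by 47 of 50 members in dog (63.8% of all dog symbols), 39 of 40 in armadillo (84.0% of symbols) and 42 of 45 in platypus (52.7% of symbols). The exceptions were EEF2, EIF4E1B and EIF4E2 in dog, EEF1A2 in armadillo, and EIF1AD, EIF4E1B and EIF4EBP1 in platypus. Of these, 2 were listed at 0 in dog (17.6% of dog symbols were) and 2 in platypus (35.1% of platypus symbols). Armadillo could show none at 0, because only genes with reads were listed for it, so its shares are not like the others. All members together took 1.31%, 3.60% and 3.61% of the reads, and these sums rest on different members because EEF1A1 was listed only for armadillo and platypus. Over the 31 members of all 3 tables the summed level was 9746, 13873 and 19082 CPM, and over the 30 other than EEF2 it was 9746, 8333 and 9879 CPM.

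**Figure D1:**
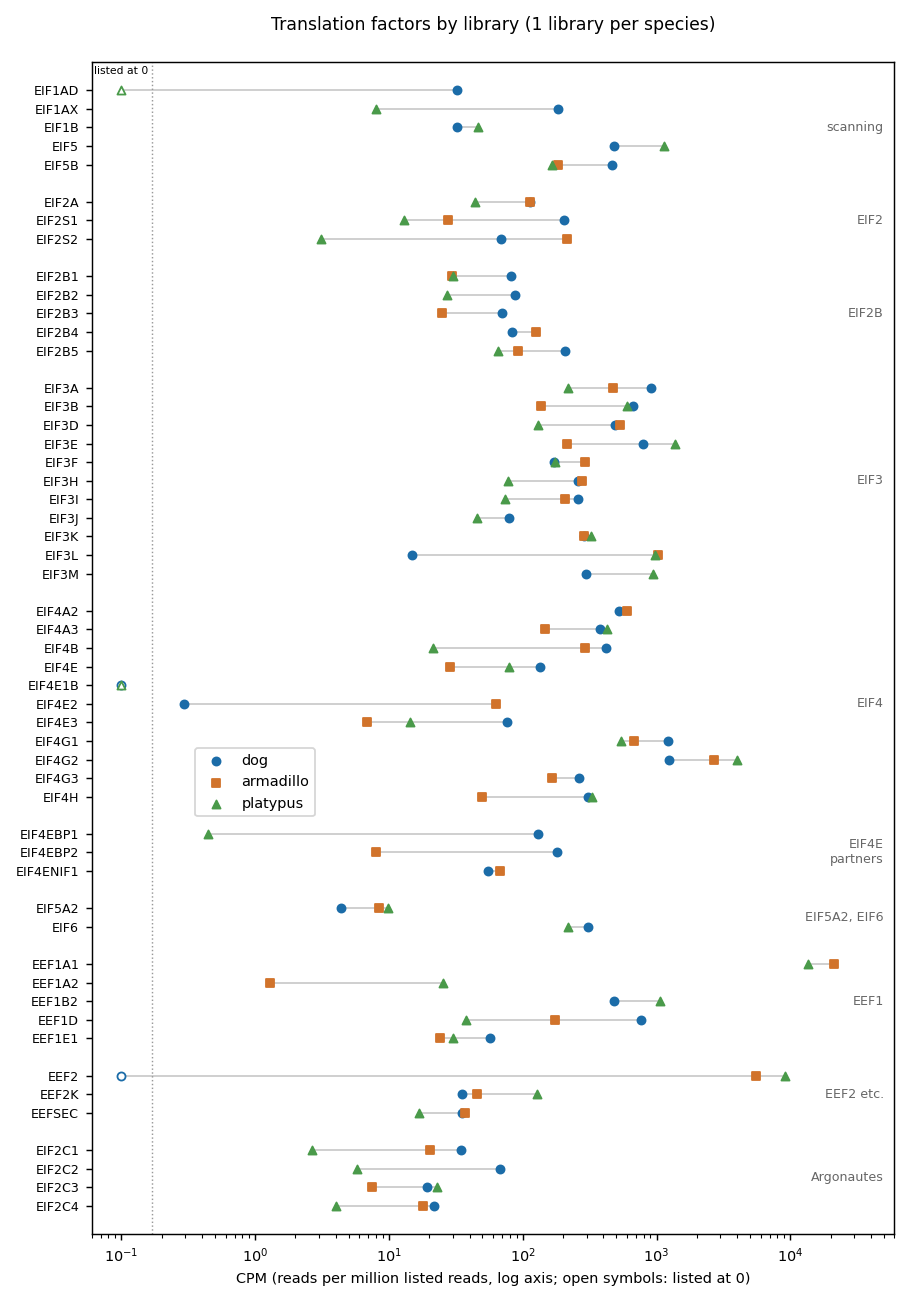
CPM of each of the 52 translation factors (rows, grouped by role) on a log axis, with 1 symbol per library and open symbols for genes listed at 0. EEF2 and EIF3L lie far lower in dog than in armadillo and platypus, and EIF2S2, EIF4B and EEF1D lie lowest in platypus.

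Between dog and armadillo more members were higher in dog than in armadillo, but this lead depended on the scaling. A member was counted as different where log2(CPM + 1) differed by 2 or more, which is 4-fold, and the higher library reached 5 CPM. Of 38 members in both tables, 7 were higher in dog (12.6% of all 8856 matched genes were) and 3 in armadillo (13.2% of matched genes). The median log2 fold of dog over armadillo was 0.60, beside 0.00 over all matched genes. The 7 were EIF4EBP2, EIF4E3, EIF2S1, EIF4H, EIF3B, EIF4E and EEF1D, and the 3 were EEF2, EIF3L and EIF4E2. These 3 had 0, 203 and 4 reads in dog, and whether the dog gene models or mapping set such values could not be told. With median-of-ratios scaling 4 members were higher in dog (9.76% of matched genes) and 3 in armadillo (15.2%). Upper-quartile scaling gave the same 4 (9.81%) and 3 (15.4%).

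Between dog and platypus more members passed the limit, and so did a larger share of all matched genes. Of 43 members in both tables, 12 were higher in dog (31.9% of 9028 matched genes were) and 2 in platypus (9.92% of matched genes). The 12 were EIF4EBP1, EIF1AD, EIF1AX, EEF1D, EIF4B, EIF2S2, EIF2S1, EIF2C2, EIF2C1, EIF4E3, EIF2C4 and EIF3A, and the 2 were EEF2 and EIF3L. Both calls toward platypus carry the same doubt about the dog values. The share higher in dog, 27.9%, lay near the background. Members had a median log2 fold (dog over platypus) of 1.0, and all matched genes one of 0.61.

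Between armadillo and platypus the differences ran both ways. Of 33 members in both tables, 5 were higher in armadillo (36.1% of 7296 matched genes were) and 4 in platypus (11.0% of matched genes). The 5 were EIF2S2, EIF4B, EIF2C1, EEF1D and EIF3D, and the 4 were EEF1A2, EIF4H, EIF3E and EIF3B. Members had a median log2 fold (armadillo over platypus) of 0.16 and all matched genes one of 1.06, and the members' median was -0.11 with median-of-ratios scaling and -0.03 with totals over matched genes. With genes at 0 left out, 27.5% of matched genes were higher in armadillo and the median of all matched genes was 0.41. None of the 33 members was listed at 0 in platypus, so their own values did not move.

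**Figure D2:**
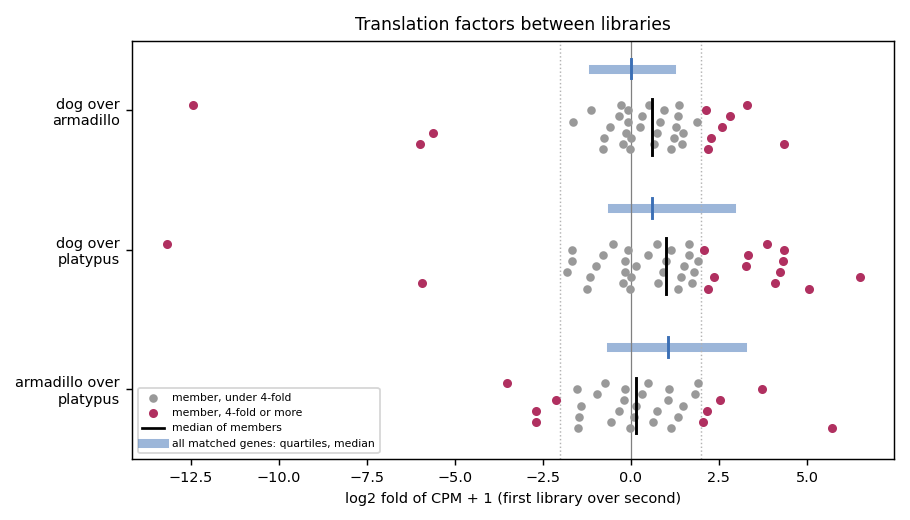
Log2 fold of CPM + 1 for each member in the 3 pairs of libraries (points, dark red from 4-fold on, dotted lines at 4-fold), with EEF2, listed at 0 in dog, at the far left of the upper rows where the pseudocount sets its place, and with the median of the members (black) and the quartiles and median of all matched genes (blue). The members' medians are 0.60, 1.0 and 0.16 and those of all genes 0.00, 0.61 and 1.06 from top to bottom.

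The choice of scaling moved these counts. Median-of-ratios scaling shifted every log2 fold by -0.32 for dog over armadillo, by -0.59 for dog over platypus and by -0.27 for armadillo over platypus before the pseudocount. Under it EEF1D, EIF3B and EIF4E fell under the 4-fold limit between dog and armadillo, EIF2C4, EIF3A and EIF4E3 between dog and platypus, and EEF1D and EIF3D between armadillo and platypus, while EEF2K, EIF3M and EIF4G2 passed it as higher in platypus than in dog. Upper-quartile scaling removed the same members from the pairs with dog and EIF3D from the pair without it, and added EEF2K, EIF3M and EIF4G2 as higher in platypus than in dog. Totals over matched genes added EIF3E as higher in dog than in armadillo and removed EEF1D and EIF3D between armadillo and platypus. A pseudocount of 0.1 CPM added EIF2C4 as higher in armadillo than in platypus, and a pseudocount of 5 CPM removed EIF2C4 between dog and platypus and EIF2C1 between armadillo and platypus. Members near a fold of 1 changed sign with the scaling: EEFSEC, EIF2A, EIF2C4, EIF3D, EIF3H and EIF3K between dog and armadillo, EIF3B and EIF6 between dog and platypus, and EIF3L and EIF5B between armadillo and platypus.

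Across the 31 members in all 3 tables, the highest level was found in dog for 15 (39.5% of the 6352 genes of all 3 tables), in armadillo for 7 (37.6%) and in platypus for 9 (22.9%). The highest and lowest library were at least 4-fold apart for 15 of the 31 (72.3% of 5579 genes that reached 5 CPM in some library) and under 2-fold apart for 3 (8.57% of those genes). EEF1D, EIF2S1 and EIF4E3 were 4-fold higher in dog than in both others (8.33% of genes), and EEF2 and EIF3L 4-fold lower in dog than in both others (3.53% of genes). Of the members higher in dog, only EIF2S1 kept both calls under median-of-ratios and upper-quartile scaling. For EEF2 and EIF3L the doubt about the dog values remains. EIF3B and EIF4H were lower in armadillo than in both others (3.32% of genes), and EIF3B lost its call against dog under those scalings. EEF1D, EIF2C1, EIF2S2 and EIF4B were lower in platypus than in both others (25.8% of genes). Against armadillo, EEF1D lost its call under median-of-ratios scaling and totals over matched genes, and EIF2C1 with a pseudocount of 5 CPM. No member was 4-fold higher than both others in armadillo (9.05% of genes were) or in platypus (5.48% of genes). The pairs share libraries, so these lists are not independent of each other.

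Among the elongation factors, EEF1A1 (ENSDNOG00000012756 in armadillo, ENSOANG00000013836 in platypus), which carries aminoacyl-tRNA to the ribosome, took 278411 reads in armadillo, or 21062 CPM, and 30265 reads in platypus, or 13489.7 CPM, a ratio of 1.56. These libraries were under 2-fold apart for EEF1A1, and dog was not analysed for it. EEF1A2 (ENSDNOG00000013873 in armadillo, ENSOANG00000004908 in platypus), the paralog known from muscle and neurons, stood at 1.29 CPM in armadillo (17 reads) and at 25.4 CPM in platypus (57 reads), 19.8-fold (95% interval 11.3 to 36.2) higher in platypus. Of all EEF1A1 and EEF1A2 reads, EEF1A2 held 0.00611% (95% interval 0.00356 to 0.00978) in armadillo and 0.188% (95% interval 0.142 to 0.243) in platypus. Because these genes have near-identical products, reads of EEF1A1 that were assigned to EEF1A2 cannot be told apart from EEF1A2 transcripts.

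Markers of the cell types known for EEF1A2 were low in both libraries, apart from STMN2. The skeletal muscle genes CKM and MYH2 summed to 0.832 CPM in armadillo, and ACTA1, CKM and TNNT3 summed to 11.1 CPM in platypus. Of the 4 neuronal markers, the 3 listed in armadillo summed to 64.5 CPM, of which STMN2 gave 61.6, and the 4 in platypus summed to 80.2 CPM, of which STMN2 gave 74.0 and SNAP25 was at 0. These sums rest on partly different genes. Of the markers listed for both libraries, CKM stood at 0.0757 CPM in armadillo and 5.79 in platypus, and SYT1 at 0.908 and 5.79. STMN2 was close, and SNAP25 went the other way, at 1.97 CPM in armadillo and 0 in platypus. The part of these cell types in the difference of EEF1A2 was not tested.

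EEF2, the translocase that moves the ribosome by a codon, was listed at 0 reads in dog (ENSCAFG00000011026). It stood at 5540.4 CPM (73236 reads) in armadillo and 9203 CPM (20647 reads) in platypus, so armadillo and platypus were high and dog alone was at 0. Every translating cell uses EEF2. TPT1 (2312 CPM in armadillo and 4027 in platypus), RPL7A (1792 and 3384) and RPL11 (1012 and 3409), also used by every cell, were listed at 0 in dog too. RPS7 (1202 CPM) and RPS15 (893), of the same kind, were not at 0 in dog. These genes were picked with their values known, so they do not show how common such zeros are. Whether gene models or mapping set the dog value of EEF2 was not tested. Of 38 genes at 500 CPM or more in both armadillo and platypus, 4 (10.5%) were listed at 0 in dog. They were EEF2 itself and the TPT1, RPL7A and RPL11 just named. Of 735 genes at 50 CPM or more in both, 8 (1.09%) were at 0, these 4 among them. No fold is given for EEF2 against dog. Between armadillo and platypus its log2 fold was -0.73, under the 4-fold limit.

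The exchange factors that recharge EEF1A went separate ways. EEF1D, the delta subunit, stood at 769 CPM in dog (10482 reads), 173 in armadillo (2289 reads) and 37.9 in platypus (85 reads). Its level stepped down from dog to armadillo by 4.44-fold (95% interval 4.25 to 4.65) and from armadillo to platypus by 4.57-fold (95% interval 3.68 to 5.74), and dog over platypus came to 20.3-fold (95% interval 16.4 to 25.4). Whether platypus gene models or mapping set the low EEF1D value there could not be told. The beta subunit gene EEF1B2 went the other way between dog and platypus, at 479 and 1063 CPM, a log2 fold of -1.15 that did not reach the limit. EEF1E1, a small protein of the multi-synthetase complex, stood at 57.2, 23.9 and 30.3 CPM, with no pair 4-fold apart.

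The remaining elongation genes differed by less than 4-fold in every pair on the CPM scale. EEF2K, the kinase that switches EEF2 off, stood at 35.4, 45.3 and 127 CPM, highest in platypus. Its log2 fold of dog over platypus passed the limit with median-of-ratios (-2.40) and upper-quartile scaling (-2.18). EEFSEC, which delivers the selenocysteine tRNA, stood at 34.9, 36.7 and 16.9 CPM.

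Platypus was low for both members with an EIF1A domain, of which EIF1AX is the scanning factor. EIF1AX, which helps the small subunit scan, stood at 184 CPM in dog (2507 reads) and 8.02 in platypus (18 reads), a ratio of 22.9 (95% interval 14.5 to 38.8). EIF1AD stood at 32.2 CPM in dog (439 reads) and was listed at 0 in platypus, where the ribosomal protein genes RPS7 and RPS15, which every cell uses, were also listed at 0. RPS7 and RPS15 were picked with their values known. Of 1299 genes at 50 CPM or more in both dog and armadillo, 178 (13.7%) were listed at 0 in platypus and 223 (17.2%) lay under 1 CPM. Whether the platypus gene models or mapping set such low values could not be told, and the intervals do not cover it. EIF1B, a copy of the start codon factor EIF1, was close in these libraries at 32.0 CPM in dog and 45.9 in platypus.

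EIF5, which triggers GTP hydrolysis on EIF2 at the start codon, stood at 482 CPM in dog and 1141 in platypus, a log2 fold of -1.24. EIF5B, the GTPase that joins the ribosomal subunits, stood at 464, 183 and 164 CPM. Dog was highest for EIF5B and the other libraries were close to each other, with no pair past 4-fold.

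The EIF2 subunits were uneven. EIF2S1, the alpha subunit whose phosphorylation in stress slows initiation, stood at 202 CPM in dog (2747 reads), 27.8 in armadillo (368 reads) and 12.9 in platypus (29 reads). It was 7.24-fold (95% interval 6.49 to 8.10) higher in dog than in armadillo and 15.6-fold (95% interval 10.8 to 23.3) higher in dog than in platypus. EIF2S2, the beta subunit, stood at 68.6 CPM in dog (935 reads), 215 in armadillo (2843 reads) and 3.12 in platypus (7 reads), so armadillo was highest and platypus near its floor. Its ratio was 68.9 (95% interval 33.4 to 172) for armadillo over platypus and 22.0 (95% interval 10.6 to 54.9) for dog over platypus. These ratios carry the doubt about platypus gene models or mapping given above.

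Alpha and beta sit in EIF2 in equal number, and their shares within a library do not depend on its scaling. EIF2S1 took 74.6% (95% interval 73.2 to 76.0) of the reads of these subunits in dog, 11.5% (95% interval 10.4 to 12.6) in armadillo and 80.6% (95% interval 64.0 to 91.8) in platypus. The platypus share rests on 36 reads. The armadillo library was the one that stood apart, and its interval did not touch the others. Reads are not divided by gene length here, and the gene models may differ in length between species. EIF2A, a separate protein that can deliver initiator tRNA, stood at 113, 114 and 44.1 CPM.

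The EIF2B exchange factor, which reloads EIF2 with GTP, had no subunit gene past the limit. The limit was passed in 0 of 4 comparisons of dog with armadillo (12.6% and 13.2% of matched genes were higher in dog and in armadillo), 0 of 3 of dog with platypus (31.9% and 9.92%) and 0 of 2 of armadillo with platypus (36.1% and 11.0%), numbers too small to set apart from those shares. EIF2B5, the catalytic epsilon subunit, stood at 206, 92.4 and 65.5 CPM, and EIF2B1, the alpha subunit, at 81.5, 29.5 and 29.9 CPM. EIF2B2 stood at 86.8 CPM in dog and 27.2 in platypus, and EIF2B3 at 70.1 in dog and 24.7 in armadillo. EIF2B4 was the exception in direction, at 83.0 CPM in dog and 125 in armadillo. EIF2B1 took 28.4% (95% interval 27.0 to 29.8), 24.2% (95% interval 22.1 to 26.4) and 31.3% (95% interval 25.2 to 38.0) of the EIF2B1 and EIF2B5 reads in dog, armadillo and platypus.

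EIF3, the largest initiation factor, holds the small subunit, the EIF4 proteins and the messenger RNA together. The 9 subunit genes in all 3 tables summed to 3858, 3441 and 3931 CPM, and the 8 without EIF3L, which was low in dog, to 3843, 2423 and 2965 CPM. The single subunits varied in different directions. EIF3K stood at 288, 287 and 321 CPM in dog, armadillo and platypus, the narrowest range of the members in all 3 tables, with the highest library 1.12 times the lowest. EIF3F was also close, at 171, 291 and 175 CPM.

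EIF3L, which pairs with EIF3K at the edge of the complex, showed the widest range of the subunits. It stood at 14.9 CPM in dog (203 reads; ENSCAFG00000001443), 1018 in armadillo (13463 reads) and 966 in platypus (2167 reads). Armadillo and platypus were alike and dog was 68.4-fold (95% interval 59.5 to 78.9) lower than armadillo and 64.8-fold (95% interval 56.1 to 75.2) lower than platypus. Whether the dog gene model or the mapping of its reads set this low value could not be told from the table, and the intervals do not cover it. In dog, where the deposited relative abundance gave gene lengths, EIF3L stood at 7.46 CPM per kb of gene model, and the other 10 subunit genes of the members lay between 102 (EIF3J, a loosely held subunit) and 536 (EIF3E).

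EIF3B, which ties EIF3G and EIF3I to the complex, and EIF3E, a subunit of its structural core, were lowest in armadillo. EIF3B stood at 670.4, 138 and 601 CPM, 4.86-fold (95% interval 4.62 to 5.12) lower in armadillo than in dog and 4.36-fold (95% interval 4.06 to 4.68) lower than in platypus. EIF3E stood at 798, 214 and 1372 CPM, 6.42-fold (95% interval 6.10 to 6.76) higher in platypus than in armadillo.

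EIF3A, EIF3D, EIF3H and EIF3I were lowest in platypus. EIF3A, the large core subunit, stood at 907, 474 and 216 CPM, 4.21-fold (95% interval 3.84 to 4.62) higher in dog than in platypus. EIF3D, which can itself bind caps, stood at 489, 536 and 129.7 CPM, 4.13-fold (95% interval 3.68 to 4.66) higher in armadillo than in platypus. EIF3H stood at 260.5, 277 and 77.1 CPM and EIF3I at 259, 207 and 73.5 CPM, under 4-fold in every pair. EIF3M was higher in platypus (938 CPM) than in dog (297 CPM), with a log2 fold of -1.66 for dog over platypus.

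As shares of the reads of the 9 subunits, EIF3E took 20.7% (95% interval 20.3 to 21.0) in dog, 6.21% (95% interval 5.99 to 6.44) in armadillo and 34.9% (95% interval 33.9 to 35.9) in platypus. EIF3A took 23.5% (95% interval 23.2 to 23.9), 13.8% (95% interval 13.5 to 14.1) and 5.49% (95% interval 5.02 to 5.98). EIF3L took 0.386%, 29.6% and 24.6%. With EIF3L left out of the total, EIF3E took 20.8%, 8.82% and 46.3% and EIF3A 23.6%, 19.6% and 7.27%, in the same order of libraries.

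**Figure D3:**
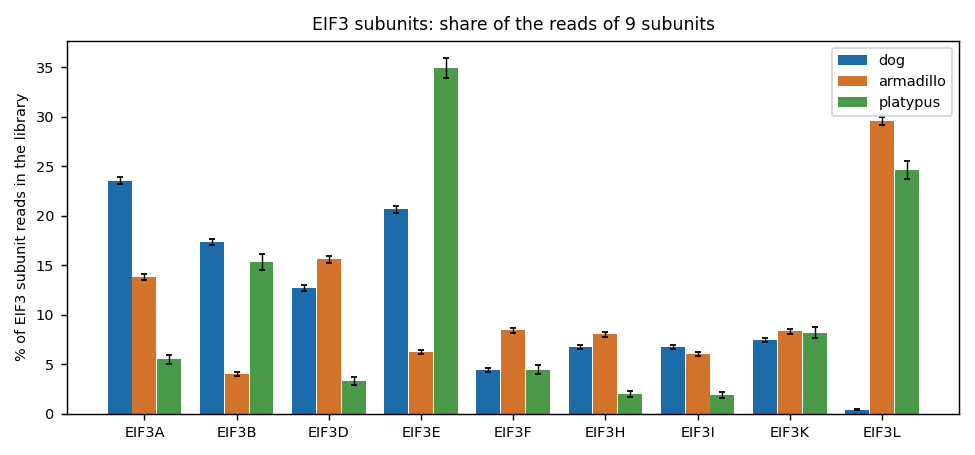
Share of the reads of 9 EIF3 subunit genes taken by each subunit in each library (bars, not corrected for gene length), with exact binomial 95% intervals (lines). EIF3K holds a like share in all 3 libraries, EIF3L is near 0 only in dog, and EIF3E takes 34.9% in platypus and 6.21% in armadillo.

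The EIF4 genes read the cap and unwind the leader of the messenger RNA. EIF4E, the cap-binding protein, stood at 134 CPM in dog (1822 reads), 28.8 in armadillo (381 reads) and 78.9 in platypus (177 reads), 4.64-fold (95% interval 4.15 to 5.19) higher in dog than in armadillo. EIF4E3, another cap-binding form, stood at 76.6, 6.81 and 14.3 CPM. Dog was highest for it, 11.3-fold (95% interval 9.07 to 14.1) above armadillo and 5.37-fold (95% interval 3.78 to 7.90) above platypus.

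EIF4E2, a cap-binding protein that represses translation, stood at 0.294 CPM in dog (4 reads) and 63.0 in armadillo (833 reads), a ratio of 215 (95% interval 83.5 to 789.7). The doubt about the dog gene model or mapping applies to EIF4E2 too. EIF4E1B, a form known from oocytes, was listed at 0 in dog and in platypus. Of the EIF4E and EIF4E3 reads, EIF4E3 took 36.4% (95% interval 34.7 to 38.2) in dog, 19.1% (95% interval 15.7 to 23.0) in armadillo and 15.3% (95% interval 10.7 to 20.9) in platypus. The armadillo and platypus intervals overlapped and the dog interval lay above both.

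The scaffold genes of the cap complex were abundant everywhere. EIF4G1, which joins EIF4E, EIF4A and EIF3, stood at 1217, 679 and 546 CPM. EIF4G2, a related scaffold that lacks the EIF4E-binding part, ran in the opposite order at 1240.0, 2694 and 3963 CPM. No pair was 4-fold apart for either gene on the CPM scale. EIF4G1 took 49.5% (95% interval 49.0 to 50.1) of the reads of this pair in dog, 20.1% (95% interval 19.7 to 20.5) in armadillo and 12.1% (95% interval 11.5 to 12.8) in platypus, and these intervals did not overlap. EIF4G3 stood at 264 CPM in dog and 165 in armadillo.

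**Figure D4:**
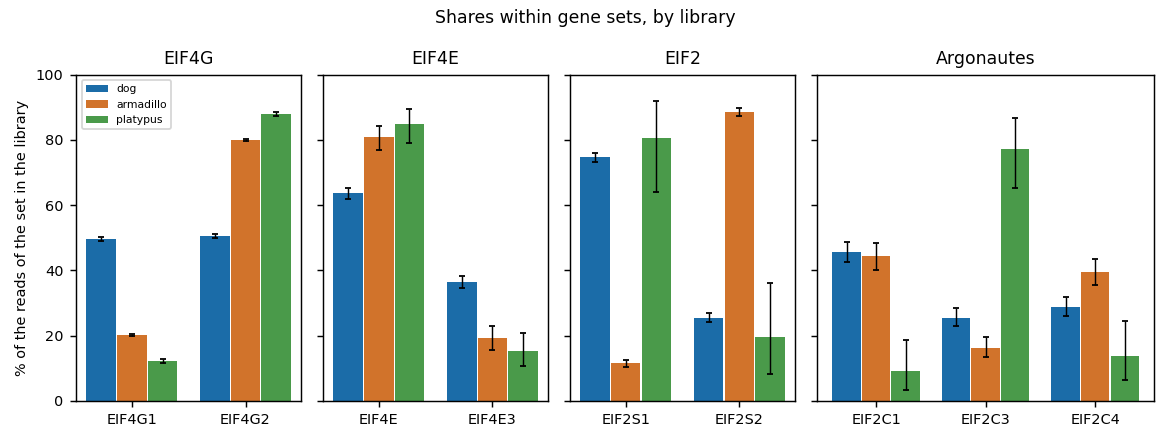
Shares of reads within 4 gene sets in each library (bars, not corrected for gene length), with exact binomial 95% intervals (lines). EIF4G1 takes 49.5% in dog and 12.1% in platypus, the share of EIF2S1 is low only in armadillo (11.5%), and EIF2C3 leads only in platypus (77.3%). The platypus shares rest on 36 reads for EIF2 and 66 for the Argonautes.

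Both stimulators of the EIF4A helicase varied between libraries, each in its own way. EIF4B stood at 419.7 CPM in dog (5719 reads), 292 in armadillo (3857 reads) and 21.4 in platypus (48 reads), 19.6-fold (95% interval 14.8 to 26.6) higher in dog and 13.6-fold (95% interval 10.3 to 18.5) higher in armadillo than in platypus. Its low platypus value is open to the same doubt about gene models or mapping. EIF4H stood at 309, 50 and 329 CPM. Armadillo was the low library for it, 6.18-fold (95% interval 5.70 to 6.72) below dog and 6.59-fold (95% interval 5.92 to 7.33) below platypus.

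The helicase genes differed less. EIF4A2, a helicase close in sequence to EIF4A1, stood at 524 CPM in dog and 606 in armadillo. EIF4A3, the helicase of the exon junction complex, stood at 380.0, 146 and 423 CPM, with no pair 4-fold apart.

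Each of the EIF4E inhibitors EIF4EBP1 and EIF4EBP2 could be compared in 1 pair of libraries, and each was higher in dog. EIF4EBP1, a repressor released by mTOR, stood at 129.6 CPM in dog (1766 reads) and 0.446 in platypus (1 read), a ratio of 291 (95% interval 52.1 to 11492). Here too the doubt about platypus gene models or mapping applies. EIF4EBP2 stood at 181 CPM in dog (2471 reads) and 8.02 in armadillo (106 reads), 22.6-fold (95% interval 18.6 to 27.7) higher in dog. Whether armadillo gene models or mapping set this low value could not be told either, nor for the other members lowest in armadillo. EIF4ENIF1, which carries EIF4E into the nucleus, was close, at 55.1 CPM in dog and 67.5 in armadillo.

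EIF5A2 and EIF6 did not reach the limit in any pair. EIF5A2, a paralog of the hypusine-bearing factor EIF5A, stood at 4.40 CPM in dog (60 reads), 8.40 in armadillo (111 reads) and 9.81 in platypus (22 reads). EIF6, which keeps the large ribosomal subunit from joining too early, stood at 306 CPM in dog and 219.7 in platypus.

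The older symbols EIF2C1, EIF2C2, EIF2C3 and EIF2C4 among the members name the Argonaute proteins, which bind small RNAs and silence messages and are not initiation factors. EIF2C1 stood at 34.6 CPM in dog (471 reads), 20.1 in armadillo (266 reads) and 2.67 in platypus (6 reads), 12.9-fold (95% interval 5.89 to 35.4) higher in dog and 7.52-fold (95% interval 3.41 to 20.7) higher in armadillo than in platypus. EIF2C2, the form that can cut its target, stood at 67.2 CPM in dog (916 reads) and 5.79 in platypus (13 reads), 11.6-fold (95% interval 6.75 to 21.9) higher in dog. EIF2C4 stood at 21.8, 17.9 and 4.01 CPM, and its dog level was 5.43-fold (95% interval 2.82 to 12.0) that of platypus (9 reads). EIF2C4 fell under the limit with median-of-ratios and upper-quartile scaling and with a pseudocount of 5 CPM. The low platypus values of EIF2C1, EIF2C2 and EIF2C4 carry the same doubt about gene models or mapping.

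EIF2C3 did not follow the other Argonaute genes, at 19.3, 7.41 and 22.7 CPM (51 reads). It took 25.5% (95% interval 22.9 to 28.3) of the reads of EIF2C1, EIF2C3 and EIF2C4 in dog, 16.3% (95% interval 13.4 to 19.5) in armadillo and 77.3% (95% interval 65.3 to 86.7) in platypus. The platypus share rests on 66 reads and carries that doubt too.

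Levels of different genes could be compared per length only in dog, where lengths were recovered for 48 members. Their median was 149 CPM per kb, and 27 of the 48 reached 100 CPM per kb. The highest were EEF1B2 at 599.9 CPM per kb, EIF3E at 536, EIF1AX at 426 and EEF1D at 396. EIF4G1 (310.1) and EIF4G2 (347) were alike and EIF4G3 (51.2) lower, and EIF4EBP2 (278) stood above EIF4E (167), EIF4EBP1 (163) and EIF4E3 (151). Within EIF2, EIF2S1 stood at 147 and EIF2S2 at 53.5 CPM per kb, and the EIF2B subunits ran from 46.7 (EIF2B3) to 95.9 (EIF2B5). The lowest were EIF4E2 (0.318), EIF2C3 (6.50) and EIF3L (7.46).

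**Figure D5:**
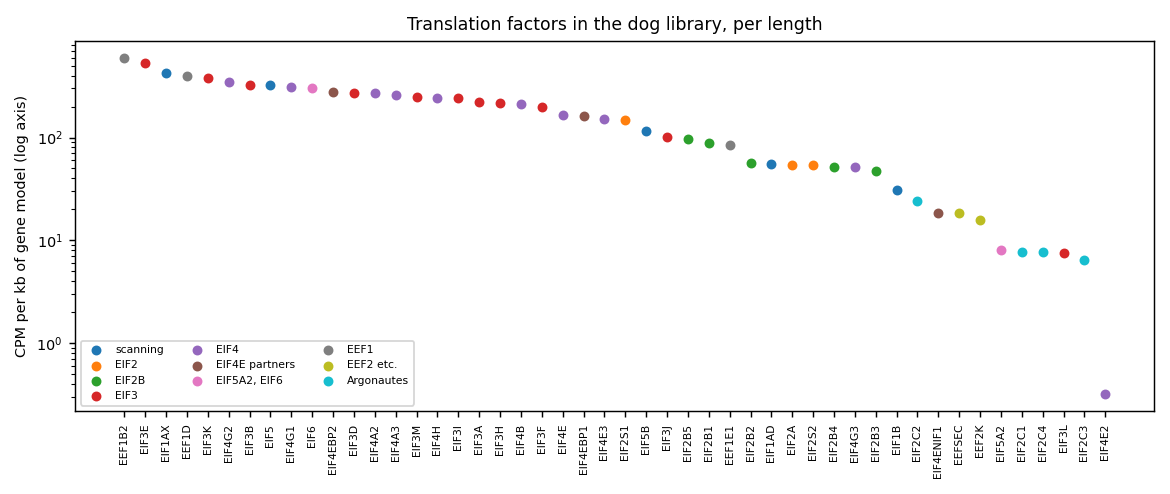
Level of 48 members in the dog library as CPM per kb of gene model (log axis), in falling order and coloured by role. EEF1B2 is highest at 599.9, and EIF3L lies at 7.46, apart from the other EIF3 subunits.

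Other genes of translation were read from a list of 66, of which 61 were found. Between dog and armadillo, 6 of 40 passed the limit toward dog (12.6% of matched genes did) and 2 toward armadillo (13.2%). Between dog and platypus, 18 of 39 passed it toward dog (31.9%) and 5 toward platypus (9.92%). Between armadillo and platypus, 11 of 33 passed it toward armadillo (36.1%) and 3 toward platypus (11.0%). The median log2 folds were 1.18, 1.16 and -0.06 in these pairs, beside the 0.00, 0.61 and 1.06 of all matched genes. In all, 7 of the 42 listed in platypus stood at 0 there, where 35.1% of symbols did, among them DPH1 and DPH5, which help build diphthamide, the modified residue of EEF2 (105 and 27.1 CPM in dog, 26.7 and 8.70 in armadillo).

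The dog library was 4-fold higher than both others for 4 of the 31 in all 3 tables (8.33% of genes were). They were the mitochondrial elongation factors TUFM (544, 133 and 71.3 CPM) and GFM1 (234, 26.5 and 33.4 CPM), the scanning helicase DHX29 (178, 40.7 and 42.3 CPM) and PPP1R15B (304, 66.4 and 6.24 CPM), a phosphatase subunit that reverses EIF2S1 phosphorylation. Over armadillo, the log2 folds of TUFM (2.02), DHX29 (2.10) and PPP1R15B (2.18) lay closer to the limit than the median-of-ratios shift of -0.32. ETF1, the release factor that ends translation, was the low one in dog (3.53% of genes were 4-fold lower there than in both others). It stood at 0.294 CPM (4 reads) against 119.7 in armadillo and 235 in platypus, and the same doubt about the dog table applies. Platypus was lower than both others for 10 of the 31 in all 3 tables (25.8% of genes were), among them the tRNA synthetase genes KARS (513, 391 and 11.1 CPM), IARS (439, 112 and 5.79 CPM), RARS (188, 81.9 and 12.5 CPM) and LARS (215, 123 and 0 CPM). The others were PPP1R15B, TSC1, PDCD4, DPH1, DPH5 and GFM2. LARS, DPH1, DPH5 and GFM2 were listed at 0 in platypus, as RPS7 and RPS15 were. MTRF1L, a mitochondrial release factor, was higher in platypus (177 CPM) than in dog (12.8) and armadillo (4.77), as 5.48% of genes were. Of the EIF2 kinases, EIF2AK3 stood at 43.0, 45.8 and 109.6 CPM and EIF2AK4 at 171, 106 and 61.1 CPM, with no pair 4-fold apart. EIF2AK1 stood at 101 CPM in dog and 43.5 in armadillo, under 4-fold, and EIF2AK2 at 17.9 CPM in armadillo while listed at 0 in platypus, past the limit.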

How the data were processed

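The 3 libraries are mRNA-seq of total RNA. The deposited dog values are estimated counts (516 not whole, rounded here) with 2 scores per gene, its mapped bases and a relative measure whose unit is not stated. The armadillo and platypus values are raw read counts, per the file headers. The submitters' processing notes name Bowtie, and sources used here state no version, build or annotation. The last line of the dog and armadillo tables holds totals and was left out. The armadillo table lists only genes with reads.

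Rows sharing an upper-case symbol were summed, which touched 0 members. CPM used the sum of each table. Dog gene lengths came from the ratio of reads to that relative measure, scaled by a constant (22083782) chosen to make them whole, which they were within 0.1 bases for 100.0% of 5644 genes with over 500 reads. Folds used log2(CPM + 1), which understates folds of low genes, and were tested on simulated data. CPM is not corrected for length, and reads of near-identical paralogs or pseudogenes may be split. Intervals assume independent reads. Members and lists were chosen with earlier results of these data known. Named by rule were EEF1A1, EEF2, members past 4-fold or listed at 0, those with the highest and lowest fold of a role group, paralog sets, and other translation genes past 4-fold against both libraries; other members are described without a rule. Alternative scalings, pseudocounts, filters and limits were tried. Python 3.11.15, pandas 2.3.3 and scipy 1.17.1 were used.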

Additional observations from a re-analysis of the deposited data

How the results depend on the processing

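Of 66 recounts of members past the limit, 51 stayed within 1.5 times the count reported, and of 27 recomputed medians 16 moved by less than 0.1. These include settings that cannot move a member, such as leaving out symbols on several rows, which left all 6 recomputed paralog shares as they were. Shares and medians in parentheses are those of all matched genes under the same setting. With median-of-ratios scaling, 4 members were higher in dog than in armadillo (9.76% of genes) with a median log2 fold of 0.28 (-0.21), 5 were higher in platypus than in dog (13.5%) with a median of 0.43 (0.25), and 3 were higher in armadillo than in platypus (34.1%) with a median of -0.11 (0.89), a reversed sign. With upper-quartile scaling, 4 were higher in dog than in armadillo (9.81%) with a median of 0.27 (-0.22), and 5 in platypus than in dog (12.0%) with a median of 0.64 (0.39). With totals over matched genes, the median for dog over armadillo was 0.77 (0.16), and for armadillo over platypus 3 members were higher in armadillo (34.4%) with a median of -0.03 (0.93), again reversed. These shifts follow from the scaling factors. A pseudocount of 5 CPM gave a median of 0.86 (0.31) for dog over platypus. Requiring 2 CPM in both libraries left 1 member higher in armadillo than in dog (9.71%) with a median of 0.71 (0.31), because EEF2 and EIF4E2 drop out, and 1 higher in platypus than in dog (11.1%). Leaving out genes at 0 also left 1 higher in platypus than in dog (13.3%), because EEF2 drops out. With a 2-fold limit, 15 were higher in dog (26.7%) and 5 in armadillo (22.4%), 21 in dog (40.2%) and 7 in platypus (16.5%), and 12 in armadillo (44.8%) and 8 in platypus (19.1%). Keeping only members of all 3 tables, an alternative added after seeing the data, gave medians of 0.75 for dog over armadillo and 1.15 for dog over platypus. Under the scalings and pseudocounts, 19 of 165 recomputed folds of single called members came under the limit. The platypus library, at 2243556 reads, limits precision for EIF4EBP1, EIF2S2, EIF2C1 and EIF2C4, which had under 10 reads there. No paired analysis was possible because each species has 1 library.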

Other observations

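Of the 59 EIF and EEF symbols, 7 were listed for 1 species only and entered no comparison. In dog these were EIF5A, the hypusine-bearing factor, at 742 CPM (10109 reads), EIF2S3, the gamma subunit that binds GTP and the initiator tRNA, at 446 CPM (6081 reads), and EIF3G at 398 CPM (5426 reads). In armadillo they were the start codon factor EIF1 at 36.7 CPM (485 reads) and EIF2D at 35.2 CPM (465 reads). In platypus they were the cap complex helicase EIF4A1 at 2814 CPM (6313 reads) and the EIF4E inhibitor EIF4EBP3 at 144 CPM (323 reads), beside 1 read of EIF4EBP1 in the same library.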
